A study of Mus with 6 samples.

Results

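The contactins are a family of 6 genes, Cntn1 to Cntn6, whose proteins sit on the surface of neurons and glia. The deposited table listed each of the 6 once by gene name, among 54532 genes, and all 6 had a mean high enough to be tested, among 13087 genes tested. The 6 libraries were RNA-seq of the basolateral amygdala, a part of the amygdala that serves fear learning, from mice labelled female. Of these, 3 libraries were labelled wild type (WT) and 3 were labelled Cntnap4 knockout (CNTNAP4-KO, here KO). The labels give no strain, age, allele or treatment, and do not say whether each library came from a separate animal, so p-values measure the spread between these libraries, which may be technical. The series title concerns a Lactobacillus given to the knockout, and no sample labelled with it was analysed here.

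Contactins are built of immunoglobulin-like domains followed by fibronectin type III repeats, and are held in the membrane by a glycosylphosphatidylinositol (GPI) anchor rather than by a segment that crosses it. They therefore act through partners, among them the Caspr proteins, which the Cntnap genes encode. Contactin 1 pairs with Caspr (Cntnap1) at the paranode, where the myelin sheath attaches to the axon, and contactin 2 pairs with Caspr2 (Cntnap2) at the neighbouring juxtaparanode, where potassium channels cluster. Contactins 3 to 6 are found mainly on subsets of neurons and can bind a receptor tyrosine phosphatase, Ptprg. Contactin 5 has been described as a partner of Caspr4, the protein of the knocked-out gene. The comparison of KO with WT thus asks whether RNA of the contactins differed where a Caspr gene was targeted.

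FPKM, the unit of every level here, divides the fragments of a gene by its length and by the size of the library, so levels can be set against each other between genes. The libraries held 15933029 to 17789798 reads recovered from the FPKM values. Cntnap4, the targeted gene, was at 3.53, 3.90 and 2.15 FPKM in WT1, WT2 and WT3 and at 1.08, 1.19 and 1.28 in KO1, KO2 and KO3. Every KO library lay below every WT library (log2 fold change -0.92, limma adjusted p = 0.302). Log2 fold changes here are differences of mean log2(FPKM + 1), not the log2 of a ratio of FPKM, and understate it at low levels. For Cntnap4 the ratio of mean FPKM, KO over WT, was 0.37. Markers of basolateral amygdala projection neurons were present in every library, with the summed level of 8 genes at 277 to 339 FPKM in WT and 273 to 312 in KO. Most of this sum was Thy1, at 154 to 222 FPKM, and the members went both ways. Neurod6 and Mef2c had all KO values above all WT values, and Lmo3 and Cdh13 had all below. These are 2 of 8 each, against 11.9% and 10.1% of all genes tested. Like sums therefore do not show that the members were alike. Both libraries numbered 3 stood apart in markers of striatal and central amygdala neurons, whose 10 genes summed to 903 FPKM in WT3 and 388 in KO3 against 66.3 to 220 in the other libraries. WT1 stood apart in mature oligodendrocyte markers, whose 12 genes summed to 286 FPKM there and to 557 to 842 in the others. Reads of mitochondrial DNA took 8.34% of WT3 and 4.10% to 6.31% of the other libraries.

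No contactin passed the threshold of an adjusted p of 0.05 between KO and WT, with limma on FPKM (0 of 6) or with voom on the recovered reads (0 of 6). Over all genes 1 of 13087 passed, 0.00764%, and with the replicate number as a block 0 did. At an unadjusted p under 0.05, 2 contactins were higher in KO, Cntn3 and Cntn4, and 0 were lower, where 7.05% of all genes tested were higher and 7.25% lower. For Cntn4 alone all 3 KO values lay above all 3 WT values, which held for 11.9% of all genes tested. The log2 fold change was positive for 4 of the 6 contactins and for 51.3% of all genes, and its median was 0.26 over the contactins and 0.01 over all genes. These counts come from 6 genes chosen as a family and describe them without testing the family as a set.

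**Figure D1:**
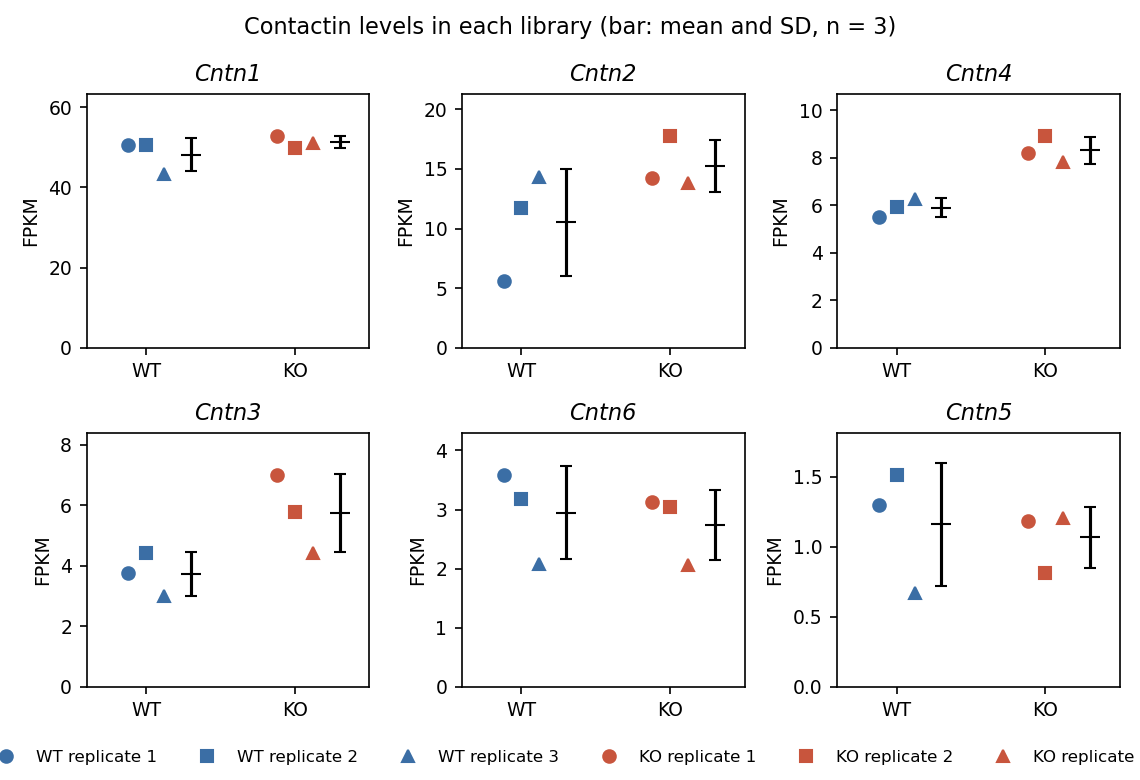
FPKM of each contactin (vertical axis, linear, from 0) in the 3 WT and 3 KO libraries; each point is 1 library, its shape gives the replicate number, and the bar gives the mean and SD of the group. Only for Cntn4 do the KO points all lie above the WT points, at 7.82 to 8.92 against 5.49 to 6.27 FPKM, and WT1 is the low point of Cntn2 at 5.57.

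The order of levels was the same in all 6 libraries, with Cntn1 first, then Cntn2, Cntn4, Cntn3, Cntn6 and Cntn5. Cntn1 took 66.5% ± 4.95 (SD, n = 3) of the summed FPKM of the 6 genes in WT and 60.8% ± 2.87 (SD, n = 3) in KO, and Cntn5 took 1.59% ± 0.55 and 1.27% ± 0.29. Cntn1 never came near the next member: its lowest library was at 43.4 FPKM and the highest value of Cntn2 was 17.8. Cntn5 was likewise clear of Cntn6, with a highest value of 1.51 against a lowest of 2.06. The members between them overlapped when all libraries were pooled. In WT1 Cntn2 and Cntn4 could hardly be told apart, at 5.57 and 5.49 FPKM. The summed level of the family was 69.8 to 77.2 FPKM in WT and 80.5 to 86.6 in KO. Without Cntn1 it was 19.7 to 26.8 and 29.3 to 36.3, so neither sum overlapped between the groups. Of the members, Cntn2 differed most in mean FPKM, at 10.5 in WT and 15.3 in KO, and its lowest value was that of WT1. These sums carry no test, and no share over all genes stands beside them.

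Cntn1 is the contactin of the paranode and is also made widely by neurons. The gene (ENSMUSG00000055022) lies on chromosome 15 from 92051165 to 92341967 on the plus strand, in the GRCm38 build named in the submitters' processing notes. It was at 50.5, 50.5 and 43.4 FPKM in WT1, WT2 and WT3 and at 52.9, 49.8 and 51.1 in KO1, KO2 and KO3. WT3 was the low library and the other 5 lay within a narrow band, so the groups overlapped. Its log2 fold change was 0.09 (SE 0.10, 95% confidence interval -0.15 to 0.33, limma adjusted p = 0.676). With 6913 to 8906 reads per library, counting error alone gives a coefficient of variation near 1.13% in WT, where the measured one was 8.49%, and in KO it was 2.99%. With the trend of values with gene length removed, the log2 fold change was -0.02.

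Cntn2, also called TAG-1, is the contactin of the juxtaparanode and is made by oligodendrocytes as well as by neurons. The gene (ENSMUSG00000053024) lies on chromosome 1 from 132509427 to 132543256 on the minus strand. It was at 5.57, 11.7 and 14.3 FPKM in WT1, WT2 and WT3 and at 14.2, 17.8 and 13.8 in KO1, KO2 and KO3. WT1 lay far below the rest, while WT3 lay within the range of KO. The log2 fold change was 0.58 (SE 0.30, 95% confidence interval -0.13 to 1.28, limma adjusted p = 0.408). It was 0.21 without WT1, 0.82 without WT3 (unadjusted p = 0.0216) and 0.89 without both libraries numbered 3 (unadjusted p = 0.0387). Its coefficient of variation was 42.7% in WT, the widest of the family there, and 14.3% in KO, where Cntn3, Cntn5 and Cntn6 spread more, against 2.46% and 2.05% from counting error.

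The level of Cntn2 followed that of myelin genes from library to library. The summed FPKM of the 12 mature oligodendrocyte markers was 286, 557 and 820 in WT1, WT2 and WT3 and 601, 842 and 735 in KO1, KO2 and KO3. All 12 had a positive log2 fold change (median 0.49), 1 was at an unadjusted p under 0.05, and 0 passed the threshold or were free of overlap. Per 100 FPKM of these markers, Cntn2 was at 1.95, 2.10 and 1.75 FPKM in WT1, WT2 and WT3 and at 2.36, 2.11 and 1.88 in KO1, KO2 and KO3, and these ratios overlapped between the groups. Within bulk tissue, fewer cells of a type and less RNA per cell cannot be told apart. The part that the oligodendrocyte content of the pieces has in the difference was not tested.

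**Figure D2:**
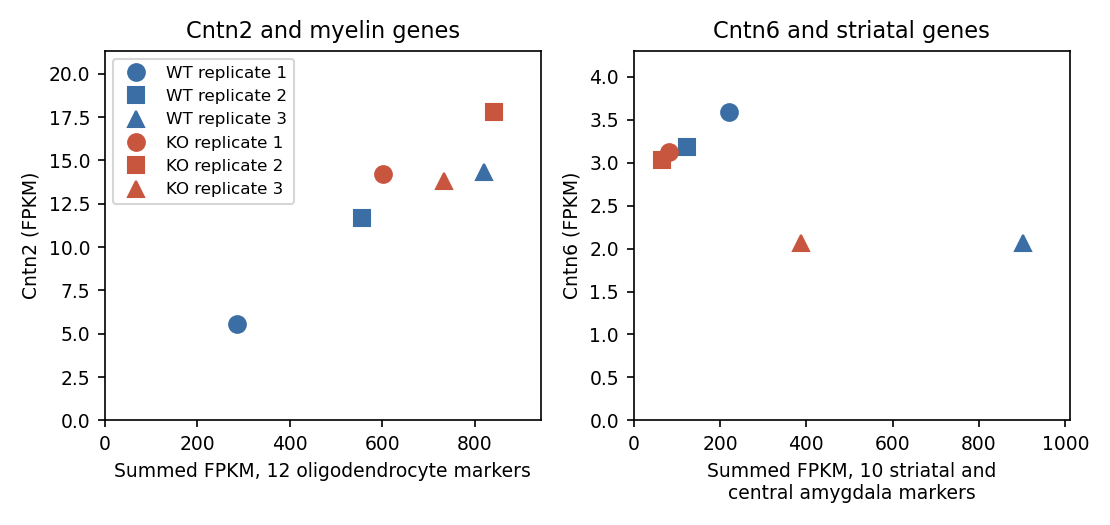
Left, FPKM of Cntn2 against the summed FPKM of 12 mature oligodendrocyte markers; right, FPKM of Cntn6 against the summed FPKM of 10 striatal and central amygdala markers; each point is 1 library, with linear axes from 0. WT1 is lowest on both axes at left (286 and 5.57), and the libraries numbered 3 at right hold the lowest Cntn6 (2.07 and 2.06) and the highest striatal sums (903 and 388).

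Cntn4, a contactin known for the guidance of olfactory axons that binds the amyloid precursor protein App, had the smallest p of the family. The gene (ENSMUSG00000064293) lies on chromosome 6 from 105677660 to 106699310 on the plus strand and spans about 1022 kb. It was at 5.49, 5.93 and 6.27 FPKM in WT1, WT2 and WT3 and at 8.19, 8.92 and 7.82 in KO1, KO2 and KO3. The lowest KO library was above the highest WT library, and both groups were tight, with coefficients of variation of 6.63% and 6.73%. The mean was 5.90 ± 0.39 in WT and 8.31 ± 0.56 in KO (SD, n = 3 each), a ratio of 1.41. On log2(FPKM + 1), the scale of the test, the log2 fold change was 0.43 (SE 0.10, 95% confidence interval 0.21 to 0.66). The unadjusted p was 0.00271, the rank 97 of 13087 genes, and the limma adjusted p was 0.302.

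Without each of the 6 libraries in turn the log2 fold change of Cntn4 ran from 0.39 to 0.47, and the unadjusted p from 0.00402 to 0.0157. The estimate was 0.34 with the length trend removed and 0.51 without both libraries numbered 3. Over all alternatives the adjusted p ran from 0.0904 to 0.684. The summed level of 8 general neuronal markers was also higher in every KO library (1184 to 1289 FPKM) than in every WT library (1033 to 1125), but its genes went both ways. All KO values lay above WT for Snap25 and Syt1 and below WT for Map2 (69.0 to 74.6 against 75.4 to 78.6 FPKM), and 4 of the 8 had a negative log2 fold change. These are 2 of 8 above and 1 of 8 below, against 11.9% and 10.1% of all genes tested. The log2 fold change of Map2 was -0.12 (limma adjusted p = 0.557). Per 100 FPKM of these markers, Cntn4 was at 0.532, 0.527 and 0.586 FPKM in WT1, WT2 and WT3 and at 0.635, 0.700 and 0.660 in KO1, KO2 and KO3. These ratios did not overlap, but such ratios were not counted over all genes. As the markers went both ways, their sum is no measure of neuron content. The part of neuron content in the difference was not tested.

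Cntn3, also called BIG-1, is a contactin of neurons that promotes neurite growth in culture. The gene (ENSMUSG00000030075) lies on chromosome 6 from 102162655 to 102573101 on the minus strand. It was at 3.75, 4.43 and 3.00 FPKM in WT1, WT2 and WT3 and at 7.00, 5.78 and 4.42 in KO1, KO2 and KO3. The groups touched at 1 point only, where KO3 at 4.42 lay just below WT2 at 4.43. The mean was 3.73 ± 0.72 in WT and 5.73 ± 1.29 in KO (SD, n = 3 each), a ratio of 1.54. The log2 fold change was 0.50 (SE 0.18, 95% confidence interval 0.09 to 0.92), with an unadjusted p of 0.0240 and a limma adjusted p of 0.317. Without KO1 the log2 fold change was 0.37 with an unadjusted p of 0.0832, without KO2 it was 0.49 with 0.0637, and without WT3 it was 0.39 with 0.0713, each above 0.05. Without KO3 the log2 fold change was 0.65. Per 100 FPKM of the neuronal markers it was at 0.281 to 0.394 FPKM in WT and 0.373 to 0.543 in KO, which overlapped.

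Cntn6, also called NB-3, is a contactin of neurons that binds the neighbouring gene's product Chl1 and can act on Notch1. The gene (ENSMUSG00000030092) lies on chromosome 6 from 104492790 to 104863406 on the plus strand. It was at 3.59, 3.18 and 2.07 FPKM in WT1, WT2 and WT3 and at 3.12, 3.03 and 2.06 in KO1, KO2 and KO3. The low values were those of the libraries numbered 3 in both groups, and libraries of the same number differed by less than the range of either group. These were also the libraries of high striatal and central amygdala markers, and the part of those cells in the level was not tested. The log2 fold change was -0.07 (SE 0.19, 95% confidence interval -0.52 to 0.38, limma adjusted p = 0.877), and leaving out 1 library at a time moved it from -0.24 to 0.07.

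Cntn5, or NB-2, is the contactin described in complex with Caspr4 and was the least abundant member. The gene (ENSMUSG00000039488) lies on chromosome 9 from 9660891 to 10904775 on the minus strand and spans about 1244 kb. It was at 1.30, 1.51 and 0.667 FPKM in WT1, WT2 and WT3 and at 1.18, 0.815 and 1.21 in KO1, KO2 and KO3. The KO libraries all lay within the range of WT. The log2 fold change was -0.05 (SE 0.19, 95% confidence interval -0.50 to 0.41, limma adjusted p = 0.921). The interval covers differences in either direction. At levels this low the scale of log2(FPKM + 1) understates the ratio of FPKM, so the interval covers larger ratios than its limits show. Only 51 to 110 reads per library stood behind these values, for which counting error alone gives a coefficient of variation of 10.5% in WT and 11.1% in KO, against 38.0% and 20.5% measured.

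**Figure D3:**
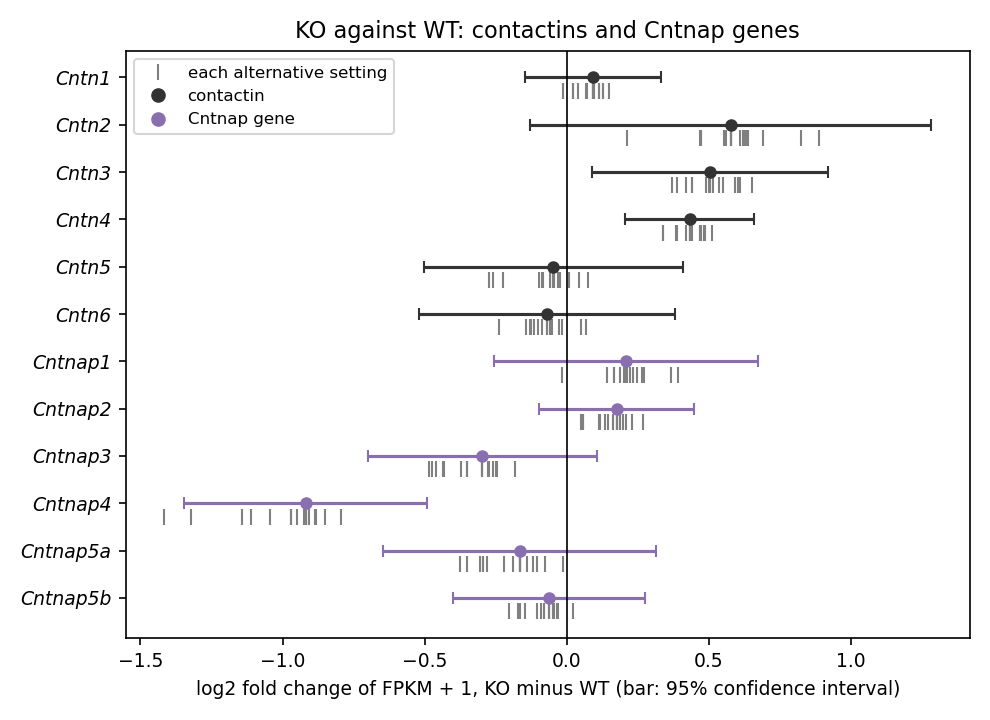
Log2 fold change of FPKM + 1, KO minus WT (horizontal axis), for the 6 contactins and the 6 tested Cntnap genes; points and bars give the estimate and its 95% confidence interval, and grey ticks the estimate under each alternative setting. The interval of Cntn3 (0.09 to 0.92) and that of Cntn4 (0.21 to 0.66) lie above 0 before adjustment, and that of Cntnap4 lies below it.

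Cntn3, Cntn6 and Cntn4 stand in a row on chromosome 6 together with Chl1, a cell adhesion gene of the L1 family. Between the start of Cntn3 and the end of Cntn4, a stretch of 4.54 Mb, the table lists these 4 protein-coding genes and no other. Gaps of 937, 743 and 814 kb separate them. Chl1 was at 15.4, 17.8 and 8.63 FPKM in WT1, WT2 and WT3 and at 17.6, 11.7 and 11.6 in KO1, KO2 and KO3, with a log2 fold change of -0.0013 (SE 0.27, limma adjusted p = 0.999). The outer genes of the row were thus those with an unadjusted p under 0.05, and the inner pair, Chl1 and Cntn6, had estimates near 0 with wide intervals. The difference between the outer and the inner genes was not tested. Genes listed inside Cntn3 (2) and Cntn5 (7) reached at most 0.168 and 0.667 FPKM. Whether counting used strand is not given in the labels, so reads of those on the opposite strand cannot be told apart from the contactin's own. The other 4 contactins overlapped no listed gene.

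Members differed in which libraries were high. Over the 6 libraries Pearson's r of log2(FPKM + 1) between members ran from -0.51 (Cntn2 with Cntn5) to 0.77 (Cntn2 with Cntn4), a description over 6 points that share the group difference. The protein-coding genes most like each member were sought among 11809. Cntn2 was most like Mal (r = 0.999), one of the oligodendrocyte markers, and Galt (r = 0.998), with 590 genes above 0.9. Among the genes most like Cntn3 was Lrfn5 (r = 0.994), and Cntn4 was most like Ahctf1 (r = 0.993) and Inpp5k (r = 0.992). The closest to Cntn1 were Rbbp4 (r = 0.996) and Golt1b (r = 0.990), and the closest to Cntn6 was Slc5a6 (r = 0.999). Cntn5 had the fewest genes above 0.9, at 39, led by Tfam (r = 0.990) and Ythdf2 (r = 0.983). These are the highest of many correlations over 6 libraries and carry no test.

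Among the Caspr partners only the targeted gene had an unadjusted p under 0.05. Of 7 Cntnap genes 6 were tested, 0 passed the threshold, and 2 had a positive and 4 a negative log2 fold change (median -0.11). Cntnap1, the partner of Cntn1, was at 28.7, 43.2 and 49.4 FPKM in WT1, WT2 and WT3 and at 43.1, 50.2 and 44.1 in KO1, KO2 and KO3. WT1 was again the low library, and without it the log2 fold change of 0.21 was -0.02. Cntnap2, the partner of Cntn2, was at 10.4 to 13.1 FPKM in WT and 12.4 to 14.1 in KO (log2 fold change 0.17, limma adjusted p = 0.495). The other Cntnap genes tested, Cntnap3, Cntnap5a and Cntnap5b, had log2 fold changes of -0.30, -0.17 and -0.06, and Cntnap5c, at 0.91 ± 0.37 FPKM in WT and 0.60 ± 0.23 in KO, was below the filter.

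Other binding partners of contactins were mixed. Of 17 partners listed 16 were tested, 0 passed, and the median was -0.03. At an unadjusted p under 0.05, 2 were higher and 1 was lower, where 7.05% of all genes tested were higher and 7.25% lower. The 2 higher were Tnr and Nfasc, with listed lengths of 12867 and 14145 bases. Among protein-coding genes of 10000 bases or more, 19.7% were higher at an unadjusted p under 0.05. All KO values lay above all WT values for 29.8% of these and for 11.9% of all genes tested. Tnr encodes tenascin-R, a matrix protein made by oligodendrocytes and some neurons that binds contactin 1. It was at 10.6, 13.3 and 11.7 FPKM in WT1, WT2 and WT3 and at 16.0, 16.0 and 14.3 in KO1, KO2 and KO3, all KO above all WT, with a log2 fold change of 0.36 (SE 0.11, limma adjusted p = 0.303). Nfasc encodes neurofascin, the glial partner of the contactin 1 complex at the paranode and a protein of the node on the axon. It was at 10.1, 13.7 and 13.9 FPKM in WT1, WT2 and WT3 and at 15.6, 17.4 and 14.8 in KO1, KO2 and KO3, again with no overlap (log2 fold change 0.33, limma adjusted p = 0.347). The 1 lower partner was Cntnap4.

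Estimates for the receptors of contactins 3 to 6 were small. Ptprg was at 9.57, 10.3 and 7.37 FPKM in WT1, WT2 and WT3 and at 7.93, 8.39 and 8.02 in KO1, KO2 and KO3, a log2 fold change of -0.14 (SE 0.13, limma adjusted p = 0.632). App averaged 127 ± 13.5 FPKM over the WT libraries and 133 ± 8.98 over those of KO (log2 fold change 0.07, -0.08 with the length trend removed). Ptprz1, the phosphatase of glia that binds contactin 1, was at 19.1 ± 3.27 and 14.6 ± 3.06 (log2 fold change -0.37, limma adjusted p = 0.379). Aplp1, a relative of App, was at 514 ± 67.1 and 403 ± 72.3 (log2 fold change -0.36, limma adjusted p = 0.377). L1cam, Nrcam, Ptpra, Ncan, Notch1 and Adgrl1 had log2 fold changes between -0.14 and 0.21, and Tnc, at 0.53 ± 0.38 and 0.21 ± 0.02 FPKM, was below the filter.

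Genes of the node, paranode and juxtaparanode, a list that shares Nfasc, Cntnap1 and Cntnap2 with the partners, had mostly positive log2 fold changes. Of 23 genes listed and tested 22 were positive, with a median of 0.29, and 0 passed the threshold. At an unadjusted p under 0.05, 11 were higher and 0 lower, and 10 had all KO values above all WT values, against 7.05% and 11.9% of all genes tested, of which 51.3% were positive. Most of the list is long by listed gene length, which is not the genomic span. Of the 23 genes 16 have 10000 bases or more. All 16 of these were positive, 9 were higher at an unadjusted p under 0.05 and 8 had no overlap. Among all protein-coding genes of that length 81.0% were positive, 19.7% were higher at an unadjusted p under 0.05 and 29.8% had all KO above all WT. Kcna2, a potassium channel of the juxtaparanode, was at 10.4, 20.9 and 22.7 FPKM in WT1, WT2 and WT3 and at 28.5, 34.2 and 31.1 in KO1, KO2 and KO3 (log2 fold change 0.83, limma adjusted p = 0.303). Scn8a and Scn1a, sodium channels of the node and axon initial segment, had log2 fold changes of 0.56 and 0.97 with no overlap. WT1 was the lowest library for each of these 3 channels.

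The node count changed when some single libraries were left out and when the length trend was removed. At an unadjusted p under 0.05 it was 0 higher without KO2, 4 without KO1, 5 without KO3 and 5 without WT1, and the counts over all genes were then 378, 537, 738 and 559 higher. It was 10 without WT2 and 10 without WT3, where 1076 and 1152 of all genes were higher. With the length trend removed 19 of the 23 were positive and 5 were at an unadjusted p under 0.05. The myelin marker sums given beside Cntn2 were likewise lowest in WT1, and the part of oligodendrocyte content in the node genes was not tested.

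**Figure D4:**
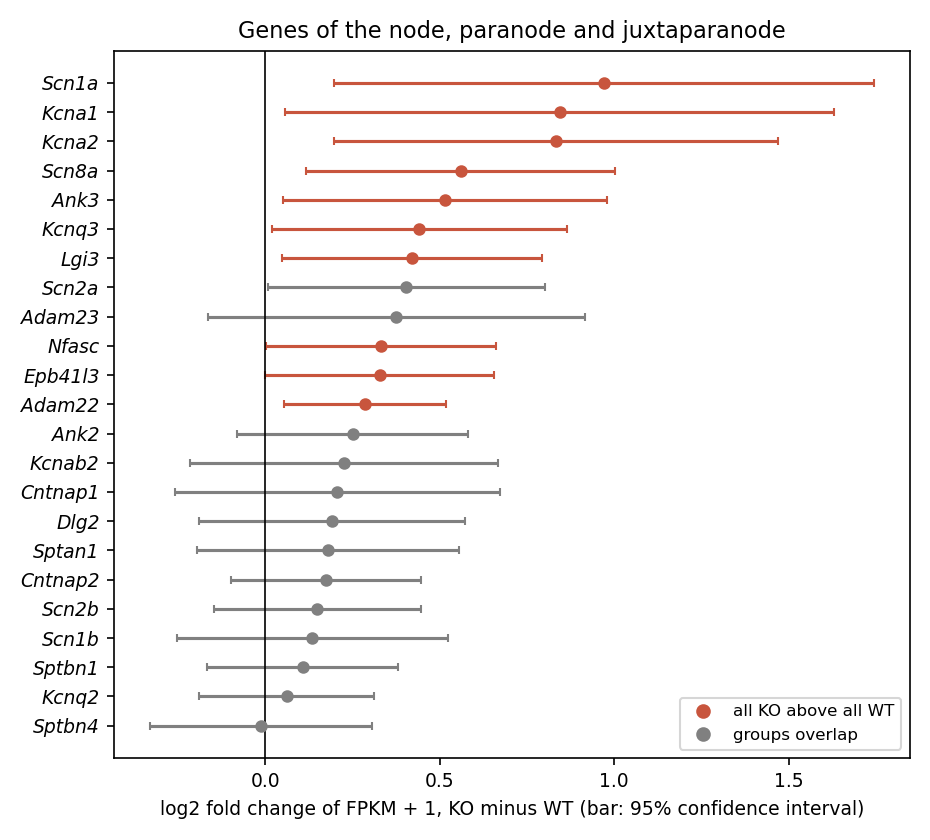
Log2 fold change of FPKM + 1, KO minus WT (horizontal axis), with 95% confidence intervals, for the 23 genes of the node, paranode and juxtaparanode; red points have all KO values above all WT values. The points of 22 of 23 genes lie right of 0, and 10 are red.

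Other gene groups around the contactins held no gene past the threshold in limma. In each of the 5 lists that follow, 1 gene was higher and 0 were lower at an unadjusted p under 0.05, where 7.05% of all genes tested were higher; in the App and GPI anchor lists, 1 of 12 and 1 of 14, the share is about that of all genes, and from lists of 4 to 6 genes nothing can be read. The L1 family had 2 of 4 positive (median 0.10). Of 5 IgLON genes, GPI-anchored adhesion molecules like the contactins, 3 were positive (median 0.25). Opcml was at 12.1, 13.8 and 12.6 FPKM in WT1, WT2 and WT3 and at 16.0, 17.0 and 14.9 in KO1, KO2 and KO3, with no overlap (log2 fold change 0.29, limma adjusted p = 0.303). Of 6 receptor tyrosine phosphatases 5 were negative (median -0.13), and the positive one was Ptprd, at 6.25 ± 1.60 in WT and 9.71 ± 0.99 in KO with no overlap. Opcml and Ptprd have listed lengths of 14519 and 22822 bases. Among protein-coding genes of 10000 bases or more, 29.8% had all KO values above all WT values. Of 12 tested genes of the App family and its proteases 7 were positive (median 0.03), with Adam10, a sheddase, at 17.9 ± 0.60 and 21.2 ± 0.65. The 14 genes of GPI anchor synthesis and attachment had a median of -0.03 with 10 negative, and the higher one was Pigg (log2 fold change 0.28).

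Notch pathway genes were mostly lower in KO by their estimates, with 9 of 12 tested negative (median -0.25), against 48.7% of all genes tested. At an unadjusted p under 0.05, 3 were lower and 1 higher, where 7.25% and 7.05% of all genes were. All KO values lay below all WT values for 4 and above for 2, against 10.1% and 11.9% of all genes tested. Hes5, a Notch target, was at 8.24, 5.40 and 10.8 FPKM in WT1, WT2 and WT3 and at 3.44, 4.65 and 5.17 in KO1, KO2 and KO3 (log2 fold change -0.72, limma adjusted p = 0.303). Hes1, another target, went the other way, with all KO above all WT. It was at 7.24, 6.80 and 7.01 FPKM in WT1, WT2 and WT3 and at 8.16, 7.36 and 8.22 in KO1, KO2 and KO3 (log2 fold change 0.15, limma adjusted p = 0.454). Dner, a neuronal Notch ligand of the same non-classical kind as contactins 1 and 6, was at 53.9 ± 17.0 and 33.9 ± 3.81, and Rbpj, the DNA-binding factor of the pathway, at 2.32 ± 0.44 and 3.10 ± 0.08. Hes5 and Notch signalling are features of astrocytes and precursors as well, and the summed astrocyte markers were at 672 to 919 FPKM in WT and 638 to 723 in KO. Oligodendrocyte precursor markers summed to 126 to 163 FPKM in WT and 104 to 109 in KO, and their part in the Notch values was not tested. The 7 tested genes of the perineuronal and perisynaptic matrix had a median of -0.01, 3 of them positive. Among them Hapln4, a link protein of perineuronal nets, was at 32.8 ± 1.48 and 45.0 ± 4.19 with no overlap, and Bcan, brevican of the same matrix, at 69.2 ± 9.97 and 52.3 ± 1.33 with no overlap in the other direction. Of the 7 genes, 2 had all KO values above all WT values and 1 had all below, against 11.9% and 10.1% of all genes tested.

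The estimates have to be read beside a trend with gene length that ran through the table. Among protein-coding genes tested, the median log2 fold change was -0.17 for lengths of 1000 to 2000 bases, 0.01 for 4000 to 6000, 0.09 for 6000 to 10000 and 0.15 above 10000. Length here is the listed gene length, not the genomic span. Contactin genes had listed lengths of 4531 (Cntn5) to 9433 bases (Cntn1), while their spans ran from 33.8 kb (Cntn2) to 1244 kb (Cntn5). The 4404 protein-coding genes in that range had a median of 0.06, 61.8% were positive and 15.6% had all KO values above all WT values. Cntn1, at 0.09, lay close to the median of its length class. With the trend removed Cntn2, Cntn3 and Cntn4 had log2 fold changes of 0.47, 0.44 and 0.34, with limma adjusted p of 0.527, 0.409 and 0.386.

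**Figure D5:**
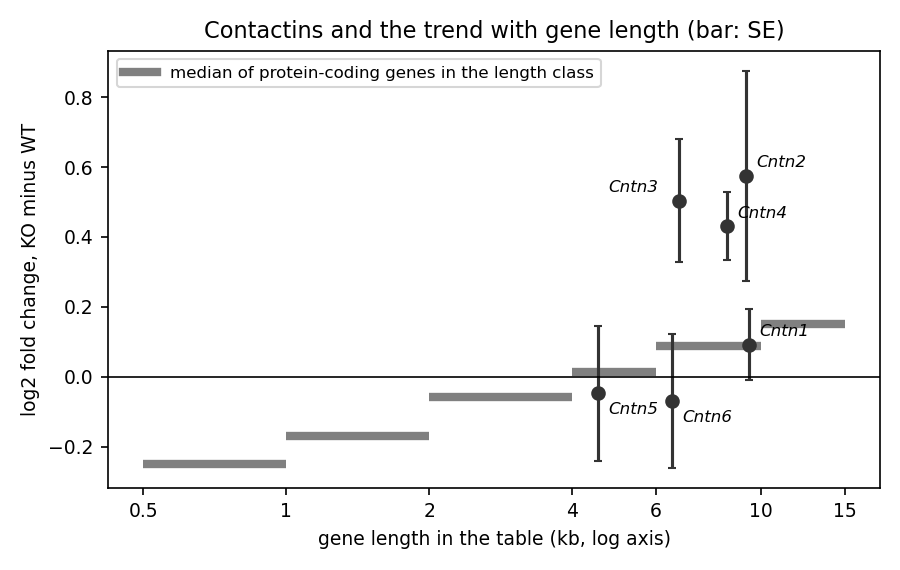
Log2 fold change of FPKM + 1, KO minus WT (vertical axis), against gene length in kb (log axis); points with SE bars are the 6 contactins and grey lines the median of protein-coding genes in 6 length classes, of which the first and last are drawn only in part. The medians go from -0.25 below 1000 bases to 0.15 above 10000, and Cntn2, Cntn3 and Cntn4 lie above the line of their class by more than 1 SE.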

How the data were processed

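The deposited table gave FPKM by the authors for 6 libraries, with gene names, positions, lengths and biotypes per the file headers. Per the labels' protocols, RNA was column-purified and a SMARTER mRNA-seq kit was used. The genome builds GRCm38 and mm10 are named in the submitters' processing notes; for the aligner, counter, annotation version and strand setting, the sources used here give nothing. In each library 100% of FPKM values times gene length were whole multiples of a smallest step (tolerance 0.01 reads), which gave the recovered reads. The library sizes implied by the steps were 0.964 to 1.05 times the recovered sums, so the values carry a scaling factor.

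Genes with a mean of at least 1 FPKM were tested on log2(FPKM + 1) with limma 3.58.1 in R 4.3.3 (variance trend, two-sided, Benjamini-Hochberg over 13087 genes, threshold 0.05). The design was KO against WT with no covariate. For genes of low level a fold change on this scale is too small. SE is limma's moderated standard error, and intervals are its 95% intervals without adjustment. With 3 libraries against 3, no exact permutation p below 0.1 is possible, so none is given. The fit was tested on simulated data first. The contactins, the 10 pathway lists and the 14 marker lists were chosen with earlier results of these data known. Text names the contactins, the Cntnap genes and partners, up to 3 members of smallest p from other lists, and the 2 genes most correlated with each contactin, some of which are not reported here; Snap25, Syt1 and Map2 were named after their values were seen.

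Deviations from group means correlated at 0.17, 0.15 and 0.33 between libraries numbered 1, 2 and 3, but WT2 with KO1, of different numbers, correlated at 0.28. No label says what the numbers share, so any pairing is a hint from the data; all values given are without the block unless it is named. Alternatives were another pseudocount, filters, scalings, voom on recovered reads, no variance trend, array weights, the replicate block, a length correction (loess, span 0.5) and leaving libraries out. All 6 contactin symbols matched a mouse RefSeq gene table, which held no sequences, so none are printed.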

Additional observations from a re-analysis of the deposited data

How the results depend on the processing

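None of the 6 contactins passed the threshold in any of the 18 alternatives tried (Cntn3, Cntn5 and Cntn6 drop out under a filter of mean FPKM 5, which leaves 17). Of 105 alternative estimates for the contactins 98 kept their direction and 7 reversed, and of 674 for the other named genes 20 reversed. Cntn2, Cntn3, Cntn4 and Cntnap4 kept their direction throughout.

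The count of genes past the threshold, 1 in the main fit, was 0 with no filter, quantile normalization, no variance trend, the length trend removed, the replicate block, and the block together with the length correction, a setting chosen after seeing the data. Without 1 library at a time it ran from 0 to 9, with 9 without WT3; at an unadjusted p under 0.05 the zero counts still stood beside 881 to 2487 genes. The replicate block changed no call of a contactin (0.221 adjusted for Cntn3 and Cntn4). With a common sum per library 1224 of the 1804 genes at an unadjusted p under 0.05 were higher in KO, against 923 of 1872.

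Contactins higher at an unadjusted p under 0.05, 2 in the main fit, were 1 with the filter of mean FPKM 5, which removes Cntn3, and 1 to 2 without single libraries (1 without KO1 and without KO2). They were 3, Cntn2 included, with array weights (limma unadjusted p of 0.0307 for Cntn2) and without both libraries numbered 3. Without WT3 the 2 were Cntn2 and Cntn4. Those with all KO above all WT, 1 in the main count, were 2 with a common sum and 3 without both libraries numbered 3, where 27.5% of all genes qualified, and 1 to 2 without single libraries. Those with all KO below all WT, 0 in the main count, were 2 (Cntn5 and Cntn6) without WT3 and without both libraries numbered 3, where 19.2% and 25.8% of all genes qualified.

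Cntn1 was at -0.015 with the length trend removed, with and without the block. Without single libraries Cntn5 ran from -0.22 to 0.074 and Cntn6 from -0.24 to 0.068, and among other genes Cntnap1 from -0.016 to 0.37, Cntnap5b from -0.17 to 0.023, Chl1 from -0.29 to 0.19, App from -0.0094 to 0.14, Notch1 from -0.10 to 0.20 and Adgrl1 from -0.14 to 0.068. Chl1 was 0.0016 with a pseudocount of 0.1 and 0.051 with a common sum. App was -0.0043 with array weights and -0.083 with the length trend removed, with and without the block, and Notch1 -0.027 and -0.10. Adgrl1 was 0.0089 with a common sum and 0.12 without both libraries numbered 3. The cause of these reversals was not tested. Depth limits Cntn5 most, with a mean of 85.5 reads.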

Other observations

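The marker lists of other cell types, given as the summed FPKM of all their genes, ran as follows. Excitatory neuron markers (8 genes) summed to 762 to 887 in WT and 778 to 1034 in KO, and inhibitory neuron markers (11 genes) to 626 to 826 and 620 to 630. Microglial markers (11 genes) summed to 196 to 266 in WT and 138 to 174 in KO, with no overlap. Endothelial markers were at 114 to 174 and 119 to 132, and pericyte and smooth muscle markers at 73.4 to 138 and 66.7 to 90.4. Meningeal fibroblast markers ran from 337 to 875 in WT, with WT1 the highest, and from 220 to 422 in KO. Choroid plexus markers ran from 16.4 to 50.5 and from 3.79 to 24.1. Hypothalamic peptide markers were at 36.2 in WT1 and 26.1 in WT2, and at 2.16 to 4.71 in the other libraries. No symbol of these lists was at 0 in all 6 libraries. The interneuron gene Pvalb, singled out after its values were seen, was at 5.19 FPKM in WT1 and at 32.5 to 57.5 in the other libraries, so WT1, the library low in Cntn2, was also low there.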
